A study of Homo sapiens with 4 samples.

Results

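H19, IGF2 and 8 other imprinted genes were followed through 4 related colorectal cancer lines. The rows of the deposited table whose symbol was H19, IGF2, CDKN1C, PHLDA2, SLC22A18, KCNQ1, GRB10, MEST, PLAGL1 or GNAS were taken, which gave 10 of the 57746 genes listed. The 10 genes were selected on their RPKM values in these same 4 libraries, so their levels are described here without a test. Each line had 1 library, so no difference between lines has a replicate check.

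SA is a derivative of DLD1 obtained from colonies in soft agar, and SPH is a derivative obtained from colonospheres, which are tumour cells grown as floating spheres. Both are called mesenchymal in the labels. METS is an epithelial derivative recovered from a lung metastasis that formed in a xenografted host. DLD1 itself is the parental epithelial line. The labels name no engineered gene in any line, and all 4 were kept in McCoy's 5A medium with serum, so the lines differ in their history and not in a treatment at harvest. SA, SPH and METS are each a single derived line.

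Imprinted genes are expressed mainly from the copy inherited from the mother or mainly from the copy inherited from the father. The choice is written in the germ line as DNA methylation at imprinting control regions, and a single region can govern a whole cluster of genes. On the short arm of chromosome 11, CTCF bound to the unmethylated maternal control region insulates IGF2 from enhancers that then act on H19. A neighbouring control region, from which the long noncoding RNA KCNQ1OT1 starts, silences CDKN1C, PHLDA2, SLC22A18 and KCNQ1 on the paternal copy. Total RNA carries no record of the parental copy it came from, so the values below are levels summed over both copies.

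A promoter window of H19 is shown first because H19 had the widest span of levels of the 10 genes. RefSeq (GRCh38.p14) places it at chr11:2001217-2001516 on the minus strand, from 250 bases before a transcription start to 50 bases after it. The capitals mark its CpG dinucleotides, the sites that DNA methylation can occupy. Which start of H19 these lines use was not tested.
H19 promoter: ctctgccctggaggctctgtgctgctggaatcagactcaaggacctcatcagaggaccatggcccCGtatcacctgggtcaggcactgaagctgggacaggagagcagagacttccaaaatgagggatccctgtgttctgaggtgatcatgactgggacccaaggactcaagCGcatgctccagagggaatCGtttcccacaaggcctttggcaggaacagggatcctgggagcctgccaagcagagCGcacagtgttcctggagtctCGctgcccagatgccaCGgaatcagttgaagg

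This stretch held 6 CpG dinucleotides (the letters CG, which read alike on both strands) at 57.7% GC. The median over 35116 RefSeq promoters of the same length was 14, and 36.8% of them held 6 or fewer. CG was found in 96% of those promoters. The letters TATAAA, searched on both strands, were not in this window, and 11.5% of all promoters held them. Promoters of SLC22A18, GRB10, MEST, PLAGL1 and GNAS were also in the RefSeq table. Each of these genes has several starts in that table, and the CpG counts ran from 26 to 28 in SLC22A18, from 3 to 49 in GRB10, from 13 to 25 in MEST, from 2 to 39 in PLAGL1 and from 10 to 43 in GNAS.

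H19 RNA is also the precursor of miR-675, a microRNA encoded in an exon of H19. The mature arms are given because they are the short products encoded in the RNA described below. RefSeq places the 5p arm at chr11:1996800-1996822 and the 3p arm at chr11:1996768-1996787 on the minus strand of GRCh38.p14, and capitals mark the seed (bases 2 to 8), the stretch that pairs with targets.
hsa-miR-675-5p: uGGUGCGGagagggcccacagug
hsa-miR-675-3p: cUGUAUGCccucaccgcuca

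The seeds of the arms differ from each other. The exons of H19 hold 2897 bases in GENCODE 29, and both arms lie farther than that from the promoter window above. The exon that carries miR-675 therefore does not begin at the start of that window. MIR675 was not matched to a row and is not analysed here. MIR483, carried in an intron of IGF2, and MIR335, carried in an intron of MEST, are listed at 0 in all lines.

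H19, a maternally expressed long noncoding RNA that is abundant in fetal tissue and low in most adult tissue, stood at 9.74 RPKM in SA, 14.67 in SPH and 2893 in METS, against 58.04 in DLD1. RPKM is reads scaled to gene length and library size. METS was the highest line and the mesenchymal lines were the lowest. The RPKM value of METS was 49.8 times that of DLD1, 197 times that of SPH and 297 times that of SA. SA stood at 0.168 and SPH at 0.253 times the RPKM of DLD1. Expressed as log2(RPKM + 1), a scale on which changes of low genes look smaller than they are, SA differed from DLD1 by -2.46, SPH by -1.91 and METS by 5.62. SPH lay 0.55 above SA on that scale.

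In METS only 13 genes had a higher RPKM than H19, and all 13 were transcripts of the mitochondrial genome. H19 ranked 14 in METS, against 592 in DLD1, and it ranked 3030 in SPH and 4353 in SA. It made up 1.02% of the summed RPKM of METS and 0.0207% of that of DLD1, with 0.00524% in SPH and 0.00353% in SA. The reads behind each value were estimated from the step size of low values and from gene length, and exact 95% Poisson intervals on them cover counting error only. The interval of H19 was 9.23 to 10.27 RPKM in SA, 14.07 to 15.29 in SPH, 2884.14 to 2901.62 in METS and 56.85 to 59.25 in DLD1. No interval touched another, and the spread between cultures of a line is unknown.

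**Figure D1:**
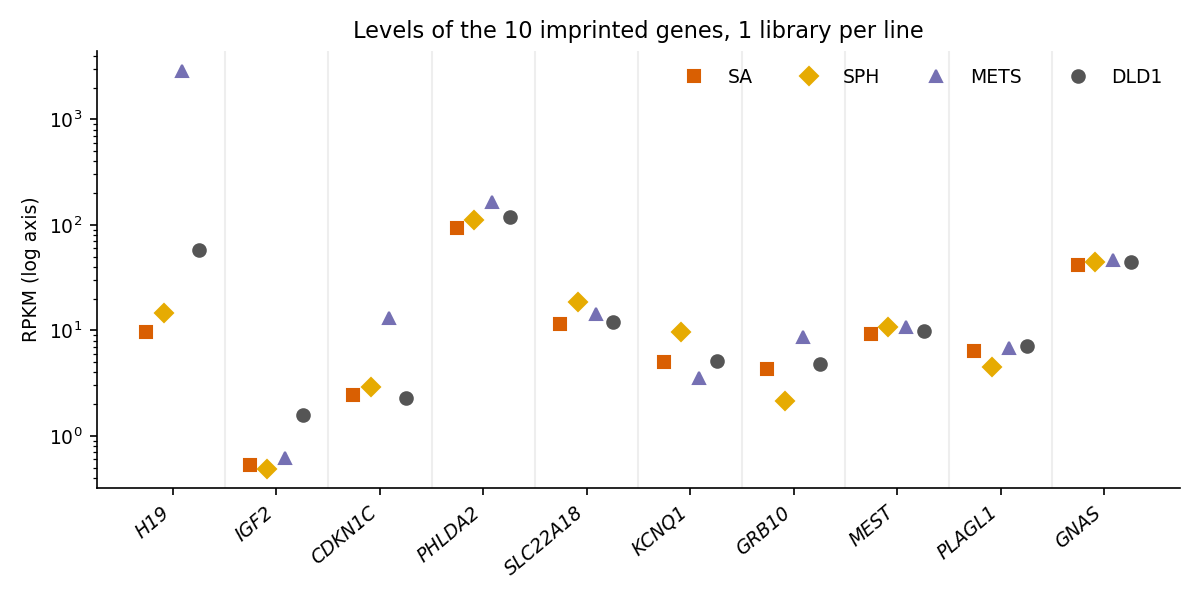
RPKM of the 10 imprinted genes in SA, SPH, METS and DLD1 on a log axis, 1 point for each library. H19 spans from 9.74 in SA to 2893 in METS, IGF2 reaches 1 RPKM in DLD1 alone, and MEST and GNAS have nearly the same value in every line.

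IGF2, the paternally expressed growth factor next to H19, stood at 0.53 RPKM in SA, 0.49 in SPH and 0.61 in METS, against 1.58 in DLD1. It was lowest, and nearly level, in the 3 derived lines and highest in the parental line, the only one at or above 1 RPKM. The counting intervals were 0.46 to 0.61 RPKM in SA, 0.42 to 0.57 in SPH and 0.53 to 0.70 in METS, against 1.46 to 1.71 in DLD1. The intervals of SA, SPH and METS overlap, so these lines could not be ordered for IGF2 at this depth. On the log2(RPKM + 1) scale the differences from DLD1 were -0.75, -0.79 and -0.68 in SA, SPH and METS, while in RPKM the derived lines stood at 0.335, 0.31 and 0.386 times DLD1. The H19 to IGF2 ratio of RPKM values was 18.4 in SA, 29.9 in SPH and 4742 in METS, against 36.7 in DLD1. The ratio was thus highest in METS, where H19 was highest while IGF2 lay within 0.11 log2 units of both mesenchymal lines. The overlapping INS-IGF2 row did not exceed 0.01 RPKM, and IGF2-AS is listed at 0 in all lines.

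The rest of the IGF pathway was read from a list of 17 genes, 10 of which reached 1 RPKM in a line. The list holds ligands, receptors and binding proteins, and also IRS1, IRS2, IRS4, PAPPA and PAPPA2. IGF2R, an imprinted gene in the mouse whose receptor clears IGF2 from the cell surface, stood at 13.80 RPKM in SA, 13.09 in SPH and 19.31 in METS, against 14.83 in DLD1. The signalling receptors were low. IGF1R stood at 1.37, 1.26 and 1.20 RPKM in SA, SPH and METS against 0.97 in DLD1, and INSR at 1.05, 1.05 and 0.90 against 0.98. The IGF2R to IGF2 ratio of RPKM values was 26 in SA, 26.7 in SPH and 31.7 in METS, against 9.39 in DLD1.

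The secreted binding proteins went different ways. IGFBP6, which binds IGF2 in preference to IGF1, stood at 4.94 RPKM in SA, 5.85 in SPH and 14.30 in METS, against 4.18 in DLD1 (log2 fold 1.56 in METS). IGFBP4 stood at 10.21 RPKM in SA, 9.17 in SPH and 4.71 in METS, against 8.74 in DLD1 (-0.77 in METS). IGFBP6 was highest and IGFBP4 lowest in METS. In METS against DLD1, 6 of the 8 genes of this list, IGF2 included, that reached 1 RPKM in either line lay above DLD1, beside 44.7% of all genes. On log2(RPKM + 1) IGFBP6 alone was at least 2-fold apart, beside 1.42% of all genes. The median log2 fold was 0.25, beside -0.03 over all genes. IGFBP3 was low, at 0.99 RPKM in SA, 0.78 in SPH and 1.16 in METS, against 0.39 in DLD1. Its METS value was 2.97 times that of DLD1 in RPKM, but 0.64 on the log2(RPKM + 1) scale. Of the 8 genes other than IGF2 that entered the test of the classes described below, 1 passed, IGFBP7, beside 0.355% of all genes tested. IGFBP7 stood at 6.17 RPKM in SA, 6.23 in SPH and 0.04 in METS, against 0.12 in DLD1. It met the minimum of that test only through the mesenchymal lines, where it was higher, and the list was drawn up with earlier results known. Its pass therefore supports nothing further (2.74 ± 0.12, SE of the log2 fold, adjusted p = 0.0013, limma-trend). With no minimum on RPKM it did not pass (adjusted p = 0.081, limma-trend). RNA-binding proteins of the IGF2 messenger were also measured. IGF2BP2 stood at 19.38, 18.29 and 25.78 RPKM in SA, SPH and METS against 23.05 in DLD1, and IGF2BP3 at 1.58, 2.32 and 2.45 against 3.0. IGF2BP1 did not reach 1 RPKM in any line. None of the 8 genes tested of the list that joins these proteins with the let-7 pathway passed between the classes, with limma-trend or without the trend, and 2 had an unadjusted p under 0.05.

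CDKN1C, the maternally expressed inhibitor of cyclin-dependent kinases also called p57, stood at 2.46 RPKM in SA, 2.91 in SPH and 13.07 in METS, against 2.27 in DLD1. METS alone stood apart, and the other lines lay close together. The counting intervals were 2.19 to 2.76 RPKM in SA, 2.63 to 3.22 in SPH and 12.44 to 13.72 in METS, against 2.02 to 2.54 in DLD1. Those of SA and SPH overlap, as do those of SA and DLD1. Against DLD1 the log2 fold was 0.08 for SA, 0.26 for SPH and 2.11 for METS, whose RPKM was 5.76 times that of DLD1.

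The related kinase inhibitors, which are not imprinted, did not show this step. CDKN1A (p21) stood at 8.91 RPKM in SA, 8.45 in SPH and 9.72 in METS, against 7.75 in DLD1. CDKN1B (p27) stood at 21.04, 22.56 and 20.48 RPKM in SA, SPH and METS, against 23.36 in DLD1. The ratio of CDKN1C to CDKN1A in RPKM was 0.276 in SA, 0.344 in SPH and 1.34 in METS, against 0.293 in DLD1. METS was thus the only line of the 4 in which CDKN1C was the more abundant of that pair.

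PHLDA2, a maternally expressed pleckstrin homology domain protein that restrains growth of the placenta, was abundant in every line. It stood at 93.46 RPKM in SA, 110.18 in SPH and 163.73 in METS, against 119.53 in DLD1. METS was highest and both mesenchymal lines lay below DLD1, with log2 folds of -0.35, -0.12 and 0.45 for SA, SPH and METS. Its relative PHLDA1, which is not imprinted, stood at 35.63 RPKM in SA, 58.79 in SPH and 39.86 in METS, against 34.52 in DLD1, and so was highest in SPH. The counting intervals of PHLDA2 did not overlap between any lines.

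SLC22A18, a maternally expressed gene for a membrane transporter, stood at 11.51 RPKM in SA, 18.47 in SPH and 14.15 in METS, against 12.07 in DLD1. SPH was highest, and the counting intervals of SA (11.10 to 11.93) and DLD1 (11.67 to 12.48) overlap. The antisense partner SLC22A18AS shares 227 exon bases with it in GENCODE 29. It stood at 2.65 RPKM in SA, 3.45 in SPH and 1.80 in METS, against 1.5 in DLD1. Whether counting used strand is not given in the sources used here, so reads in the shared bases cannot be told apart.

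KCNQ1, the pore subunit of a voltage-gated potassium channel that carries KCNQ1OT1 in antisense within it, stood at 4.97 RPKM in SA, 9.70 in SPH and 3.50 in METS, against 5.12 in DLD1. SPH was highest and METS lowest, and the counting intervals of SA (4.68 to 5.28) and DLD1 (4.84 to 5.41) overlap. KCNQ1OT1 is listed at 0 in all lines. KCNE3, the subunit with which KCNQ1 forms a channel in colonic epithelium, was highest in METS and lowest in SPH, at 2.15 RPKM in SA, 1.41 in SPH and 4.22 in METS, against 2.81 in DLD1. The KCNQ1 to KCNE3 ratio of RPKM values was 2.31 in SA, 6.88 in SPH and 0.829 in METS, against 1.82 in DLD1.

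The chromosomal neighbours of H19 and CDKN1C were read in the order of RefSeq genes that reached 1 RPKM, with 5 on each side. None of the 10 neighbours of H19 differed at least 2-fold in METS against DLD1, beside 1.42% of all genes. Their log2 folds ran from -0.68 (IGF2) to 0.59 (ASCL2), with a median of -0.18. The folds of the same neighbours ran from -0.75 to 0.22 in SA and from -0.79 to 0.81 in SPH. None reached 2-fold there either, beside 0.677% and 1.26% of all genes. Among 10 genes, counts of 0 lie near those shares. MRPL23, the nearest neighbour on the far side of H19 from IGF2, stood at 31.62 RPKM in SA, 38.39 in SPH and 34.45 in METS, against 37.85 in DLD1. The lysosomal protease gene CTSD stood at 184.80 RPKM in SA, 185.45 in SPH and 178.04 in METS, against 262.31 in DLD1.

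The 10 neighbours of CDKN1C include IGF2, ASCL2, CD81, TSSC4 and KCNQ1, which are also neighbours of H19. None of the 10 differed at least 2-fold from DLD1 in METS, beside 1.42% of all genes, so this count too is near that share. Their folds ran from -0.68 (IGF2) to 0.59 (ASCL2), with a median of 0.12. ASCL2, a transcription factor of intestinal stem cells, stood at 75.51 RPKM in SA, 77.60 in SPH and 110.66 in METS, against 73.17 in DLD1. NAP1L4, a histone chaperone at the edge of the cluster, stood at 58.13, 57.68 and 60.49 RPKM in SA, SPH and METS, against 57.67 in DLD1. Over 629 genes of chromosome 11 the median log2 fold of METS against DLD1 was -0.10, with 6 genes at least 2-fold higher and 10 lower.

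**Figure D2:**
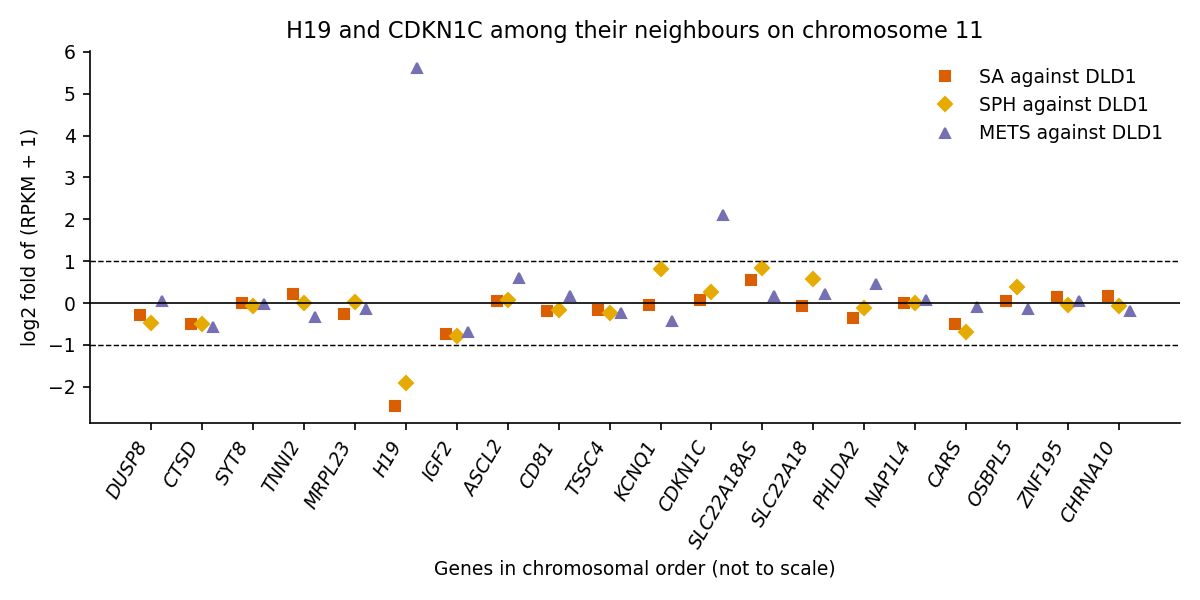
log2 fold of (RPKM + 1) against DLD1 for 20 genes in their order along chromosome 11, not to scale, with 1 point each for SA, SPH and METS. The dashed lines mark 2-fold, and H19 and CDKN1C are the only genes past them, H19 in all 3 lines and CDKN1C in METS.

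GRB10, an adaptor that binds the insulin and IGF1 receptors and restrains their signal, is imprinted by isoform and tissue. It stood at 4.26 RPKM in SA, 2.13 in SPH and 8.72 in METS, against 4.76 in DLD1. METS was highest and SPH lowest, and the counting intervals (4.08 to 4.45 in SA, 2.01 to 2.26 in SPH, 8.46 to 8.98 in METS and 4.58 to 4.95 in DLD1) do not overlap. Against DLD1 the log2 fold was -0.13 for SA, -0.88 for SPH and 0.75 for METS, and METS over SPH gave 1.63. Its relatives that are not imprinted varied less. GRB7 stood at 6.36, 8.80 and 7.72 RPKM in SA, SPH and METS against 8.91 in DLD1, and GRB14 at 1.75, 1.22 and 2.62 against 1.59. GNAL, a relative described below, reached 1 RPKM in METS alone and so was not in the class test. Of the 10 relatives of the imprinted genes that were tested, GRB7 and GRB14 included, none passed with limma-trend or without the trend. Of these 10, 1 had an unadjusted p under 0.05. The 10 neighbours of GRB10 on chromosome 7 ran from -0.75 to 0.64 in METS against DLD1, with a median of 0.09.

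PLAGL1, a paternally expressed zinc finger factor known for slowing cell growth, stood at 6.40 RPKM in SA, 4.54 in SPH and 6.82 in METS, against 7.17 in DLD1. SPH was lowest, and the counting intervals of METS (6.58 to 7.07) and DLD1 (6.93 to 7.42) overlap, as do those of METS and SA (6.16 to 6.65). PLAGL2, its relative, stood at 8.15, 7.24 and 7.14 RPKM in SA, SPH and METS, against 7.40 in DLD1. HYMAI, which shares 289 exon bases with PLAGL1 on the same strand, was not matched and is not analysed here.

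MEST, a paternally expressed gene for a protein of the hydrolase family, stood at 9.32 RPKM in SA, 10.69 in SPH and 10.86 in METS, against 9.92 in DLD1. GNAS, which encodes the stimulatory G protein alpha subunit and has promoters with different imprinting, stood at 42.03 RPKM in SA, 44.08 in SPH and 46.22 in METS, against 44.89 in DLD1. The highest line stood at 1.17 times the lowest for MEST and 1.1 times for GNAS, the narrowest spans of the 10 genes, against 297 for H19. The counting intervals of neighbours in the order of MEST overlap (8.93 to 9.72 RPKM in SA and 9.54 to 10.31 in DLD1, for example), and for GNAS those of SPH (43.59 to 44.57) and DLD1 (44.40 to 45.38) do. GNAL, a relative of GNAS that encodes the G protein alpha subunit of olfactory neurons, was low but exactly at the 2-fold rule, at 0.61 RPKM in SA, 0.55 in SPH and 1.84 in METS, against 0.42 in DLD1 (log2 fold 1.0 in METS). It was the 1 gene among 11 relatives tested in METS against DLD1 that reached the rule, beside 1.42% of all genes. GNAS values sum over all transcripts of the locus, so its imprinted and biallelic transcripts cannot be told apart. COPG2, in antisense to the end of MEST with 228 shared exon bases, stood at 15.14, 16.88 and 15.96 RPKM in SA, SPH and METS, against 17.30 in DLD1.

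**Figure D3:**
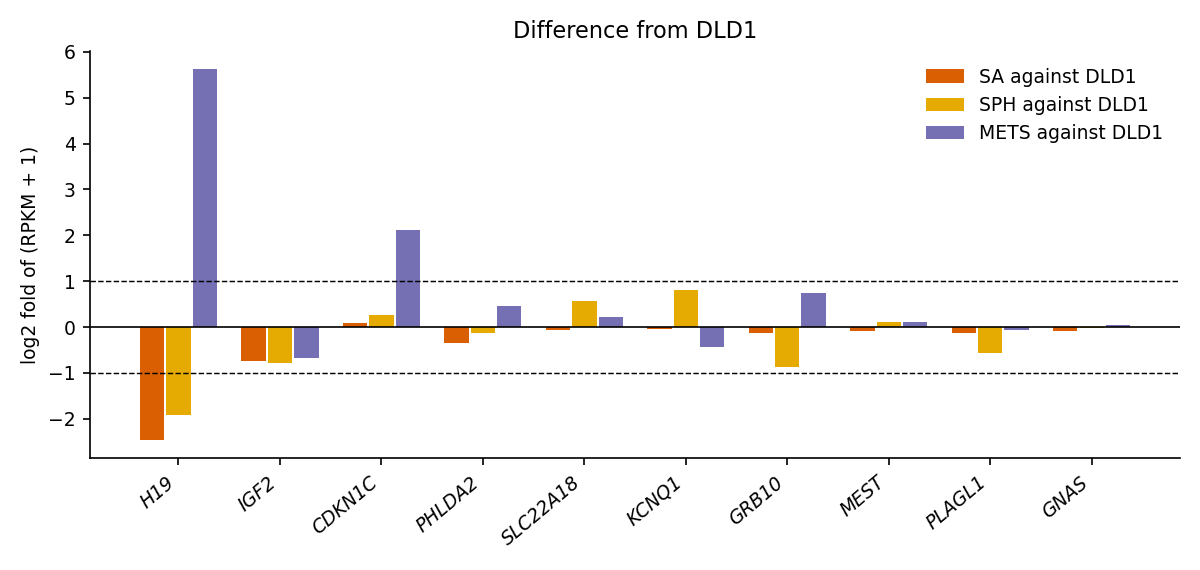
log2 fold of (RPKM + 1) of SA, SPH and METS against DLD1 for the 10 imprinted genes, 1 bar for each line, with dashed lines at 2-fold. H19 reaches -2.46 for SA, -1.91 for SPH and 5.62 for METS. CDKN1C reaches 2.11 for METS, and no other gene reaches 2-fold.

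All 10 genes reached 1 RPKM in at least 1 line of every comparison and so entered each count. The counts describe how the choice of genes came out and support nothing further, since their values were used in choosing them. In SA 1 of the 10, H19, differed at least 2-fold from DLD1, beside 0.677% of 11367 genes in that comparison. H19 was also the only 1 of the 10 in SPH, beside 1.26% of 11446 genes. With a pseudocount of 0.1 in place of 1, the count was 2 in SA and 3 in SPH, since IGF2 stood at 0.335 times the RPKM of DLD1 in SA and at 0.31 times in SPH, and GRB10 at 0.447 times in SPH. In METS H19 and CDKN1C did so, both higher, beside 1.42% of 11275 genes. Whatever the fold, SA had 1 of the 10 above DLD1 and 9 below, beside 55.2% of all genes above. SPH had 4 above and 6 below, beside 55.9% above, and METS had 7 above and 3 below, beside 44.7% above. The median log2 folds of the 10 were -0.11, -0.07 and 0.17 in SA, SPH and METS, beside 0.03, 0.03 and -0.03 over all genes tested. The SD of the log2 fold over all genes was 0.24, 0.29 and 0.32 in SA, SPH and METS.

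METS was at least 2-fold above all 3 other lines for H19 and CDKN1C, beside 0.677% of 11664 genes set apart in either direction. The nearest line lay 5.62 below METS for H19 and 1.85 below for CDKN1C on the log2 scale. Next, and under the rule, came GRB10, at 0.75, and PHLDA2, at 0.45. KCNQ1 was the only one of the 10 with METS below every other line, by 0.41. All 3 comparisons share the DLD1 library, so its error enters each of them.

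**Figure D4:**
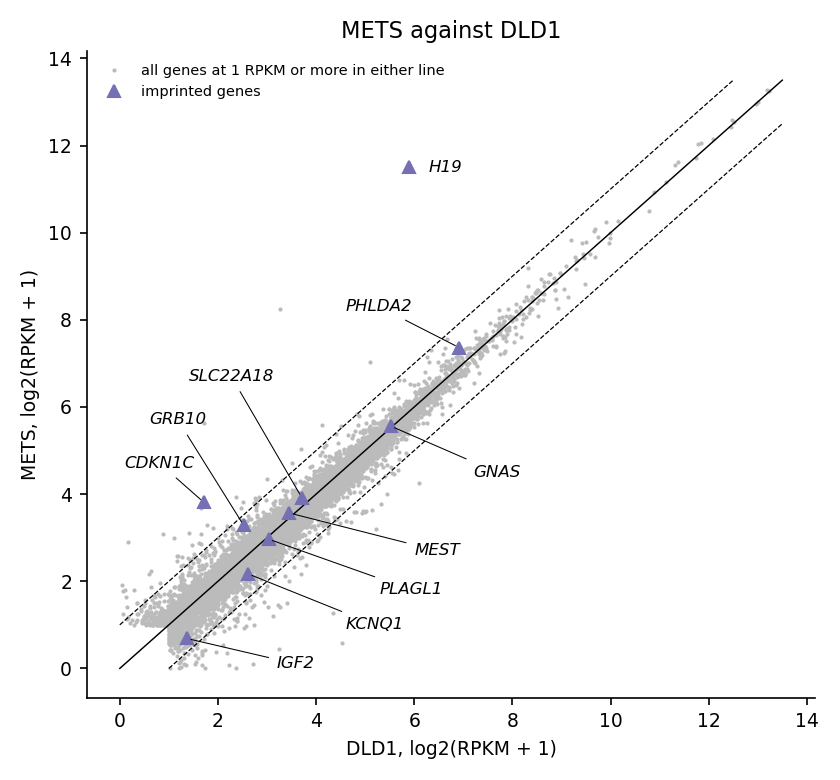
log2(RPKM + 1) in METS against DLD1 for every gene that reached 1 RPKM in either line (grey) and for the 10 imprinted genes (triangles), with the diagonal and dashed lines at 2-fold. H19 lies farthest above the diagonal at 11.50 in METS and 5.88 in DLD1, and CDKN1C is the only other triangle outside the dashed lines.

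By class, both mesenchymal lines lay below both epithelial lines for H19, IGF2, PHLDA2, GRB10, PLAGL1 and GNAS, which is 6 of the 10, beside 13.2% of 11664 genes. The 10 genes were selected on these values, so their count supports nothing further. Both the count of the 10 and that of all genes took the values without their counting intervals. Those intervals overlap between SA and METS for IGF2 and PLAGL1, and between SPH and DLD1 for GNAS. For IGF2, PLAGL1 and GNAS the order by class is thus not settled at this depth. For CDKN1C, SLC22A18, KCNQ1 and MEST the classes overlapped, and for none of the 10 did the mesenchymal lines both lie above. The mean class difference, mesenchymal minus epithelial on the log2(RPKM + 1) scale, was -4.99 for H19, but METS and DLD1 differ by 5.62 within the epithelial class. For GRB10 and CDKN1C it was -0.88 each, for KCNQ1 0.61 and for GNAS -0.08. For CDKN1C, METS and DLD1 differ by 2.11.

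Other genes were read from imprinted lists of 80 genes, the 10 included, of which 76 matched a row. Some are listed for imprinting in another species or in certain cells, such as IGF2R in the mouse and UBE3A in neurons. Whether each listed gene is imprinted in these lines was not measured. These lists were drawn up with earlier results of these data known. Of the 66 that are not among the 10, 21 reached 1 RPKM in a line. Another 21 of the 76 are listed at 0 in all lines, among them MEG3 and DLK1 of the chromosome 14 cluster, NDN and MAGEL2 of the chromosome 15 cluster, PEG3 and DIRAS3, and an entry of 0 is read here only as listed at 0. Against DLD1, none of the 21 genes that reached 1 RPKM differed at least 2-fold in METS, beside 1.42% of all genes. In METS 11 lay above and 10 below, beside 44.7% of all genes above, with a median log2 fold of 0.04. None differed at least 2-fold in SA, beside 0.677% of all genes, with a median of 0.01. In SPH 1 gene, CPA4, was at least 2-fold lower, beside 1.26% of all genes in either direction, and the median was -0.04. Among 21 genes, counts of 0 or 1 are near those shares.

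CPA4, a carboxypeptidase gene beside MEST, stood at 0.46 RPKM in SA, 0.02 in SPH and 0.40 in METS, against 1.56 in DLD1. Like IGF2 it was highest in the parental line and under 1 RPKM in all 3 derivatives. ASCL2 had the largest rise of the group in METS (log2 fold 0.59), and TP73, of the p53 family, went the other way at 3.50 RPKM in SA, 3.93 in SPH and 1.63 in METS, against 2.92 in DLD1 (-0.58 in METS). UBE3A, the ubiquitin ligase imprinted in neurons, varied little, at 15.35, 15.11 and 16.54 RPKM in SA, SPH and METS against 14.30 in DLD1. DIO3, the deiodinase that inactivates thyroid hormone, stood at 1.80, 1.77 and 2.0 RPKM in SA, SPH and METS, against 2.08 in DLD1.

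**Figure D5:**
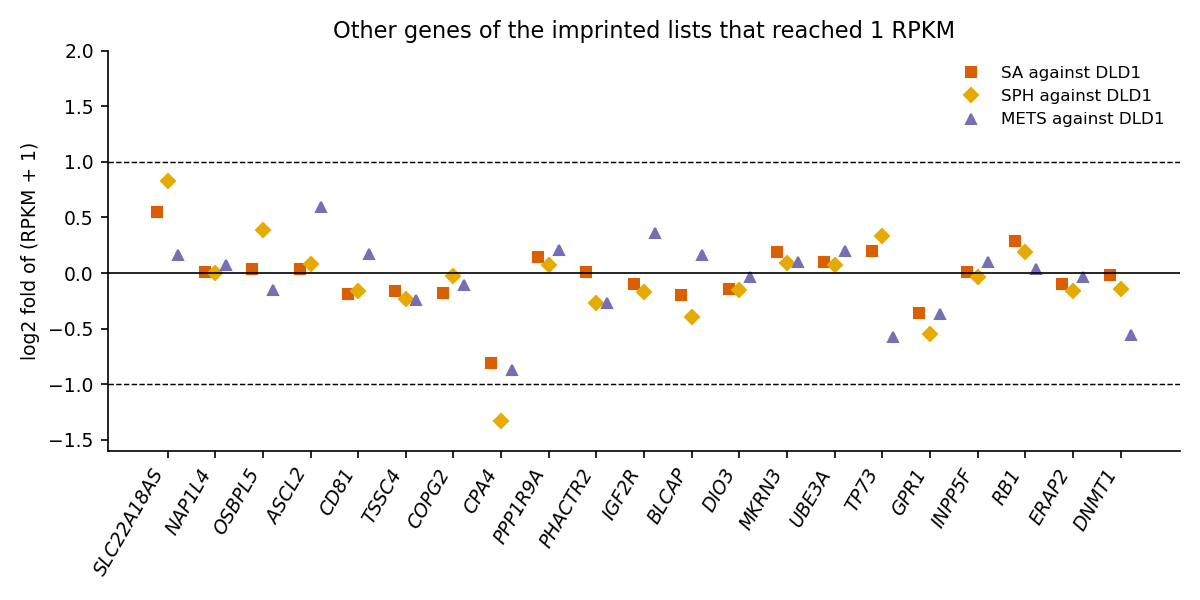
log2 fold of (RPKM + 1) against DLD1 for the 21 other genes of the imprinted lists that reached 1 RPKM, with 1 point each for SA, SPH and METS. The dashed lines mark 2-fold, and CPA4 in SPH, at -1.33, is the only point past them.

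The classes were tested over all genes with limma-trend, with 2 lines in each class, and 40 of 11262 genes passed an adjusted p of 0.05, which is 0.355%. Of the other genes of the imprinted lists, CPA4 was not tested, since it reached 1 RPKM in DLD1 alone. None of the 20 that were tested passed, with limma-trend or without the trend. Of these, 3 had an unadjusted p under 0.05. SLC22A18AS had a class difference of 0.61 ± 0.15 in log2 units, mesenchymal minus epithelial (adjusted p = 0.34, limma-trend, error as SE). BLCAP, whose intron holds the imprinted gene NNAT, had one of -0.38 ± 0.12 (adjusted p = 0.48, limma-trend), and TP73 one of 0.55 ± 0.20 (adjusted p = 0.53, limma-trend). The median class fold of the 20 was -0.04, beside 0.04 over all genes. These p-values measure the spread between different lines of a class and not between cultures.

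Factors that establish, read or protect imprints were mostly level between lines. Of 25 listed, 20 reached 1 RPKM. None of these differed at least 2-fold from DLD1 in SA, SPH or METS, beside 0.677%, 1.26% and 1.42% of all genes. In METS 4 of the 20 lay above DLD1 and 16 below, beside 44.7% of all genes above, with a median log2 fold of -0.09 beside -0.03 over all genes. DNMT1, the maintenance DNA methyltransferase, stood at 33.15 RPKM in SA, 30.50 in SPH and 22.60 in METS, against 33.74 in DLD1 (log2 fold -0.56 in METS). UHRF1, which brings DNMT1 to replicating DNA, stood at 24.01, 22.94 and 28.66 RPKM in SA, SPH and METS, against 29.11 in DLD1. DNMT1 was lowest in METS, whereas UHRF1 was lower in the mesenchymal lines. DNMT3A, a de novo methyltransferase, was also lower there, at 1.87 RPKM in SA and 1.47 in SPH, against 2.83 in METS and 3.10 in DLD1. CTCF stood at 21.70 RPKM in SA, 18.97 in SPH and 17.73 in METS, against 20.09 in DLD1. ZFP57, a zinc finger protein that guards methylated control regions, stood at 9.17, 8.87 and 8.01 RPKM against 9.44, and its partner TRIM28 at 128.84, 118.36 and 112.68 against 135.21. None of the 20 passed the class test, with limma-trend or without the trend, and 2, DNMT3A and UHRF1, had an unadjusted p under 0.05. DNA methylation was not among the measurements analysed here.

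The patterns nearest to that of H19 over the 4 lines were found by the root mean square difference of centred log2(RPKM + 1) among 11663 genes. They were S100P (1.67), KLHL4 (1.79), PHGR1 (2.22), LY6G6D (2.25) and C6orf15 (2.28). S100P, a calcium-binding protein gene, stood at 6.78 RPKM in SA, 9.0 in SPH and 129.41 in METS, against 33.12 in DLD1. Its order of lines was the same as that of H19, while its span was narrower.

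CDKN1C had closer matches. Among them were MEGT1 (0.07), ALDH1A1 (0.11), DSC2 (0.12) and CLIC3 (0.16). The desmosomal cadherin gene DSC2 stood at 1.27 RPKM in SA, 1.82 in SPH and 6.97 in METS, against 1.14 in DLD1. ALDH1A1, an aldehyde dehydrogenase gene, reached 2.78 RPKM in METS and did not exceed 0.03 in the other lines. In RPKM that is a far larger multiple than the 5.76 times of CDKN1C in METS over DLD1. The closeness of ALDH1A1 thus holds on the log2(RPKM + 1) scale only. With 4 libraries, likeness of this kind is a description of these lines.

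The libraries were alike in depth, with an estimated 48.5 to 53.9 reads per kb of gene at 1 RPKM and 10920 to 11238 genes at or above 1 RPKM. Of 8 epithelial and intestinal markers 7 reached 1 RPKM in a line, and CDX1 did not exceed 0.09. EPCAM stood at 222.22 RPKM in SA, 231.10 in SPH and 262.59 in METS, against 212.20 in DLD1, and CDH1 lay between 94.47 and 115.27 RPKM in all 4. KRT8 (565.38 RPKM in SA, 587.37 in SPH, 1084.21 in METS and 817.09 in DLD1) and KRT18 (476.10, 504.47, 864.69 and 679.98 RPKM in that order of lines) were lower in both mesenchymal lines. The intestinal keratin KRT20 was lower in all 3 derived lines, at 4.06 RPKM in SA, 3.18 in SPH and 0.50 in METS, against 21.92 in DLD1. VIL1, of the same list, went the other way in METS, at 1.89 RPKM in SA, 1.41 in SPH and 3.35 in METS, against 1.39 in DLD1. CDX2 lay between 27.58 and 35.99 RPKM in all 4. Since METS passed through a host lung, markers of other cells were read beside the H19 and CDKN1C values. The rows are human genes on a human genome build, so RNA of a host of another species need not appear in them. Whether host cells were present was therefore not tested by these markers. None of the 8 fibroblast, 4 matched endothelial and 7 leukocyte markers reached 1 RPKM in any line. The summed RPKM of the fibroblast list was 0.26 in SA, 0.49 in SPH and 0.31 in METS, against 0.22 in DLD1. DCN and THY1 were at 0 in every line, and LUM was at 0.18 RPKM in METS and at 0 in SA, SPH and DLD1. The endothelial sum lay between 0.16 and 0.27, and the leukocyte sum between 0.26 and 0.65, with PTPRC at 0 in every line. Of 5 lung epithelium markers NKX2-1 alone reached 1 RPKM, and did so in METS, with 0.21 in SA, 0.09 in SPH and 0.57 in DLD1, while SFTPC did not exceed 0.03 in any line. In bulk RNA, fewer cells of a type and less RNA per cell cannot be told apart.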

How the data were processed

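Total RNA of 4 lines was sequenced, 1 library each. The deposited values are RPKM, per the values themselves, written to 2 decimals. Per the submitters' processing notes the genome build was hg19. For the aligner, counting tool, annotation and strand setting, the sources used here give nothing. The values summed to between 275639 and 284919 per line, and no pair of columns was identical. Depth was estimated from value steps of genes of 200 to 500 bases, and exact Poisson intervals at 95% cover counting error only, since reads without molecular identifiers are not independent molecules.

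Values were used as log2(RPKM + 1). A gene entered a comparison where its higher library reached 1 RPKM, and the rule was at least 2-fold. The class test was limma-trend in limma 3.58.1 under R 4.3.3, adjusted by Benjamini-Hochberg for all genes at or above 1 RPKM in at least 2 of 4 libraries. This leaves out IGF2, IGFBP3, CPA4 and GNAL among others. The script was tested on simulated data. The members and gene lists were chosen with earlier results of these data known. Named genes were the 10, up to 4 genes per list by the METS fold and up to 2 by class fold, 5 neighbours each side, the 5 nearest patterns, and relatives beside the gene they belong to. A gene that this rule names is not reported here. CTCF, ZFP57, TRIM28, IGF2BP1, IGF2BP3 and the markers EPCAM, CDH1, CDX2 and LUM were named after their values were seen. Gene order, names, promoters and microRNAs came from RefSeq (GRCh38.p14), and lengths and overlaps from GENCODE 29. That build differs from the authors' own, so it gave no measurement. MESTIT1, HYMAI, NAA60 and SNURF of the imprinted lists are not analysed here. Alternatives were a pseudocount of 0.1 or 5, no minimum or 5 RPKM, median-of-ratios factors, a 1.5-fold or 4-fold rule, limma with no trend, and each library left out in turn. Python 3.11.15, pandas 2.3.3, numpy 2.4.6, scipy 1.17.1 and matplotlib 3.10.9 were used.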

Additional observations from a re-analysis of the deposited data

How the results depend on the processing

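Of 30 alternative folds of the 10 genes in METS against DLD1, 29 kept their direction and their side of 2-fold, and none changed direction. IGF2 passed 2-fold with a pseudocount of 0.1, at -1.24. With that pseudocount 2 of the 10 genes differed at least 2-fold in SA and 3 in SPH, where a pseudocount of 1 gave 1 each. A 1.5-fold rule gave 2 in SA, 4 in SPH and 4 in METS, beside 2.82%, 4.57% and 5.41% of all genes in those comparisons. A 4-fold rule gave 0 in SPH and left 1 gene, H19, set apart in METS. The class test passed 26 genes with a pseudocount of 0.1, 5 with a minimum of 5 RPKM and 0 of 24097 with no minimum, where 2208 had an unadjusted p under 0.05 (limma-trend). Leaving out a library gave counts from 5 (without SA) to 305 (without DLD1), with 6 without SPH and 27 without METS. In those fits the lone line of a class is assumed to vary like the lines of the other class. The count of other imprinted genes ran from 0 to 1, where TP73 passed without DLD1 (adjusted p = 0.046, limma-trend). The cause of these changes was not tested. No paired analysis was possible because each line has 1 library and the labels give no shared numbers. The depth limits the order of lines for IGF2, since its values rest on about 179 to 594 reads.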
